A study of Mus musculus with 8 samples.

Results

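RNA made far from any annotated gene was followed in mouse macrophages, as 956 unspliced loci of the authors' merged transcript annotation. A locus was taken when all of its transcripts carried the class code u, which Cufflinks gives to intergenic transcripts with no reference match, when each had a single exon, and when the gap to the nearest locus holding a reference-matching transcript (class code =) exceeded 20000 nt. These 956 loci were chosen by position and structure alone, out of 3049 unannotated single-exon loci and 31020 merged loci in all. Another 2093 unannotated single-exon loci lay at 20000 nt or less from an annotated locus and served as the comparison. They are called near loci below, and the 956 are called far loci.

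The cells were bone marrow-derived macrophages, grown from the marrow of C57BL/6 mice, and the study compared 4 untreated libraries with 4 libraries of the same cells given the cytokine interleukin-4 (IL-4). The dose and duration of IL-4 are not given in the sources used here. Total RNA was depleted of ribosomal RNA, so transcripts with and without a poly(A) tail could enter the libraries. The labels do not say whether the 4 samples of a group came from different mice, and p-values therefore measure the spread between these samples.

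IL-4 belongs to type 2 immunity. It signals through its receptor and the transcription factor STAT6 and drives macrophages into the alternatively activated state. Active enhancers, the distant DNA elements that such factors bind, are commonly transcribed into short-lived, mostly unspliced RNA. Unspliced intergenic RNA can also come from unannotated genes, from retained pieces of longer transcripts, or from sequence copies of genes. None of the chromatin marks that separate these classes was measured in these libraries, so the loci are named here only by position and structure. All 956 far loci are unstranded in the annotation, so the strand that was transcribed is not known. The files pair no locus with a gene symbol, so the macrophage label could not be set against marker genes and annotated neighbours are described by position. Coordinates are those of the authors' mm9 annotation. In bulk RNA, fewer cells using a locus and less RNA per cell cannot be told apart.

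Library totals ran from 23071022 to 27783417 counts, and between 894 and 936 of the far loci had at least 1 count in each library. No far locus was without counts in all libraries together. This is not a finding, because a locus with no reference match enters a merged annotation only by assembly from reads. Counts on chromosome Y were 5808 and 5525 in the replicate 4 libraries of the untreated and IL-4 groups, and 0 to 7 in the other 6 libraries. The replicate 4 samples stood apart in that respect, so the 4 samples of a group did not all come from 1 mouse. How many mice were used is not known.

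The far loci were short. Their median length was 934 nt, with a range from 105 to 20417 nt, and their median gap to an annotated locus was 64231 nt, with the most isolated at 1502682 nt. Chromosome 10 held 86 of them, chromosome 13 held 79 and chromosome 19 held 14. No other unannotated locus lay within 20000 nt of 506 far loci, whereas 77 lay within the span of an unannotated multi-exon locus. Just inside the limit were chr10:59099783-59101685, chrX:83042298-83044941 and chr1:193780335-193781096, at gaps of 20074, 20139 and 20157 nt. Their mean levels in untreated cells were 0.538, 0.886 and 0.384 CPM, counts scaled to the usual common library size. Just outside it were chr8:130854285-130855905, chr1:88399074-88401682 and chr17:15231890-15233319, at gaps of 19993, 19988 and 19932 nt, with 0.323, 1.31 and 0.350 CPM in untreated cells.

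A few abundant loci carried most of the signal. The 163 far loci with a mean of 10 CPM or more over the 8 libraries held 93.2% of all counts on far loci, and 518 far loci averaged under 1 CPM. The locus with most counts, chr2:172334900-172335238, is 339 nt long and had 15964, 23311, 19710 and 20124 counts in the untreated libraries and 18334, 18189, 16186 and 17602 with IL-4. Its groups overlapped, and the change was not called (log2 fold change -0.15 ± 0.09 SE, adjusted p = 0.185 by edgeR's quasi-likelihood test). The loci chrX:12779671-12780992 and chr16:76403435-76403957 followed, at 690 ± 91.6 and 654 ± 50.8 CPM in untreated cells and 574 ± 27.2 and 547 ± 21.1 CPM with IL-4 (SD, n = 4). Neither of these was called, and with library totals in place of normalization factors all 3 loci counted as fallen. Of the 12 loci with most counts, chr6:99827601-99828438 and chr16:48218643-48219487 were called, both named after their values were seen. The first went from 572 ± 38.4 to 621 ± 43.0 CPM (SD, n = 4; adjusted p = 0.0279, edgeR), a call lost on leaving out untreated replicate 2, untreated replicate 3 or IL-4 replicate 3 and with library totals. The second fell from 386 ± 46.4 to 256 ± 51.5 CPM (SD, n = 4; log2 fold change -0.48 ± 0.13 SE, adjusted p = 0.00992, edgeR). Whether the abundant loci share sequence with genes elsewhere was not tested, because no genome of this build was used here.

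With IL-4, far loci changed in both directions. A locus was called when its adjusted p was under 0.05 in edgeR's quasi-likelihood test with Benjamini-Hochberg adjustment over all tested loci. Of the 956 far loci, 633 passed the filter on low counts. Among them 154 rose, or 24.3%, where 25.6% of all tested loci rose, and 80 fell, or 12.6%, where 26.2% of all tested loci fell. With this filter the share that rose was thus near that of all loci, and the share that fell was lower. Without the count filter all 956 could be tested, and 234 rose (24.5%) and 122 fell (12.8%), beside 19.3% and 17.6% of all loci with any count. There the share that rose was above that of all loci. Groups that did not overlap were found for 230 far loci, or 36.3% of those tested, against 50.2% of all tested loci. A change of at least 2-fold with a call was seen for 57 far loci upward and 33 downward of the 633 tested. Of all tested loci 16.1% made such a change in either direction.

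The balance of rises and falls depended on the scaling. The normalization factors (TMM, which balance the bulk of loci between libraries) shifted IL-4 libraries against untreated ones by -0.11 on the log2 scale, and with library totals in their place the median change of all tested loci was -0.13. On that scale 124 far loci rose and 125 fell, while 19.7% of all tested loci rose and 34.6% fell. An annotated coding locus at chr9:7344397-7369499, the one with the largest gain in CPM, took 0.105% of the counts in untreated cells and 2.45% with IL-4. The median fitted log2 change was 0.06 for far loci, -0.11 for near loci and -0.02 for all tested loci.

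The largest changes were made by the weakly transcribed loci. Of the 163 far loci at 10 CPM or more, 48 rose and 15 fell, but only 2 changed 2-fold or more with a call, which is 1.23%. Among annotated loci of the same level that share was 9.76%, or 756 of 7744. Among near loci of that level it was also low, at 3.17%, or 4 of 126. The first of the 2 far loci was chr4:121756458-121757344, which lies 461727 nt from the nearest annotated locus. It had 1625, 1847, 1556 and 1506 counts in untreated cells and 4512, 5447, 4196 and 3366 with IL-4, a rise in every IL-4 library above every untreated one (log2 fold change 1.44 ± 0.11 SE). The other, chr2:68392241-68393820, rose from 8.79 ± 0.666 to 17.0 ± 1.37 CPM (SD, n = 4). Both are named because the count was small, after their values were seen. Below 10 CPM, 470 of 793 far loci were tested, 106 rose, 65 fell and 18.7% changed 2-fold or more with a call, beside 24.5% of near loci and 24.9% of annotated loci at that level.

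**Figure D1:**
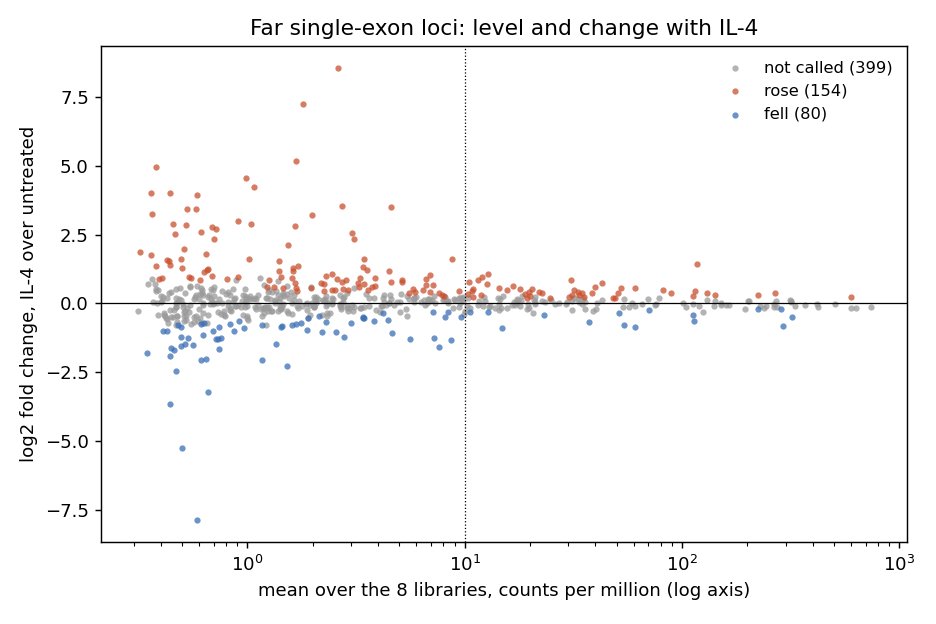
Each point is a far single-exon locus that passed the count filter (633 loci), with its mean CPM over the 8 libraries on a log axis and its fitted log2 fold change, IL-4 over untreated, on the vertical axis. Colours mark loci that rose (154), fell (80) or were not called (399), and the dotted line is at 10 CPM, to the right of which 2 loci were called at 2-fold or more.

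Falls were most frequent in the class closest to annotated loci. At gaps of 20000 to 50000 nt, 56 of 232 tested far loci rose (24.1%) and 40 fell (17.2%). At 50000 to 100000 nt, 46 of 166 rose (27.7%) and 17 fell (10.2%). At 100000 to 200000 nt, 22 of 106 rose (20.8%) and 10 fell (9.43%), and beyond 200000 nt 30 of 129 rose (23.3%) and 13 fell (10.1%). Of all tested loci 25.6% rose and 26.2% fell, so the share that fell was lower in every distance class. These counts are a description, and the difference between the distance classes was not tested. The loci that rose had a median length of 1276 nt, those that fell 1534 nt, and those tested but not called 696 nt.

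Near loci gave another balance under the same fit, with 188 rises (16.4%) and 265 falls (23.1%) among 1146 tested. The shares over all tested loci were 25.6% and 26.2%. To test the difference between far and near loci, counts were summed in each library. Far loci held 1.76%, 1.72%, 1.68% and 1.68% of the counts of the untreated libraries and 1.63%, 1.56%, 1.61% and 1.58% of those with IL-4. Every IL-4 library lay below every untreated one (two-sided exact permutation p = 0.0286, the smallest that 4 against 4 can give, and 0.0571 adjusted over the 2 sums tested as planned). By replicate pairs the share was lower with IL-4 in 4 of 4, for which the smallest exact p is 0.125. Near loci went from 1.39% ± 0.0302 to 1.28% ± 0.0176 (SD, n = 4). The log2 ratio of far to near counts was 0.296 ± 0.0131 in untreated cells and 0.309 ± 0.00978 with IL-4, a difference that did not pass the exact permutation test (p = 0.2, n = 4 per group). It passed with a gap limit of 50000 nt (difference 0.0719) and without the 5 far loci with most counts (difference 0.0262), with an exact p of 0.0286 in both. With a gap limit of 10000 nt the difference was reversed, at -0.0340, and did not pass (exact permutation p = 0.286). The sums are dominated by the abundant loci and are relative to library totals. On that scale the median fitted change of far loci was -0.05, against 0.06 with TMM factors. With the chromosome 9 locus left out of the totals, the far share was still lower, at 1.71% ± 0.0382 and 1.63% ± 0.0318 (SD, n = 4).

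Among loci under 10 CPM, a limit chosen after seeing the data, the ratio of far to near counts rose. The far share was 0.111% ± 0.00418 in untreated cells and 0.115% ± 0.00410 with IL-4 (exact permutation p = 0.2, n = 4 per group). The near share was 0.177% ± 0.0171 and 0.159% ± 0.0108 (exact permutation p = 0.114, n = 4 per group). Their log2 ratio rose from -0.67 ± 0.0978 to -0.46 ± 0.0508 (exact permutation p = 0.0286, n = 4 per group, and 0.0457 adjusted over a family of 8 sums and ratios). That family holds added sums but leaves out some other sums and the alternative settings, such as other gap limits, that were also tested. The ratio was higher with IL-4 in 4 of 4 replicate pairs, for which the exact p is 0.125.

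The largest rise was at chr10:10012627-10015719 (XLOC_003066), 28784 nt from the nearest annotated locus. It had 0, 0, 0 and 1 counts in the untreated libraries and 107, 212, 143 and 87 with IL-4. All IL-4 libraries were far above the untreated ones, which held a single read in replicate 4. The ratio of CPM was 517, with a 95% exact interval from 92.4 to 20451 that covers counting error only, and the fitted log2 fold change was 8.53 ± 0.58 (SE; adjusted p = 5.23e-07, edgeR). Without untreated replicate 4 the untreated count was 0 and the rise at least 130-fold against a floor of 3 counts over the group. The locus passed the count filter through the IL-4 libraries alone. With no reference match it was also listed only through assembled reads, and its p-value does not allow for that choice.

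The next rises also began near zero, and the same limit on p-values holds where untreated reads were almost absent. At chr5:32722462-32723268 (XLOC_021916) the untreated libraries had 0, 1, 1 and 0 counts and the IL-4 libraries 90, 103, 87 and 95, with a ratio of 177 (95% exact interval 48.5 to 1463, counting error only). Without untreated replicate 3, which held 1 of the 2 untreated reads, it was 270.4. The IL-4 libraries lay close together, at 3.58 ± 0.104 CPM (SD, n = 4), and its adjusted p was 3.64e-08 (edgeR). At chr13:51300928-51301446, a locus of 519 nt, counts were 0, 2, 4 and 3 against 70, 119, 93 and 57, and the fitted log2 fold change was 5.18 ± 0.44 (SE). Of the 12 largest rises, chr5:53767261-53771839 was the most abundant with IL-4. Its counts were 22, 12, 21 and 22 untreated and 225, 203, 223 and 220 with IL-4, so the groups were 11.4-fold apart by the fit. The IL-4 libraries lay close together, and untreated replicate 2 was below the other 3 of its group. The remaining 8, on chromosomes 2, 7, 10, 17 and 19, rose 10.8-fold to 31.1-fold by the fit, and none had a CPM above 0.462 on average in untreated cells.

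**Figure D2:**
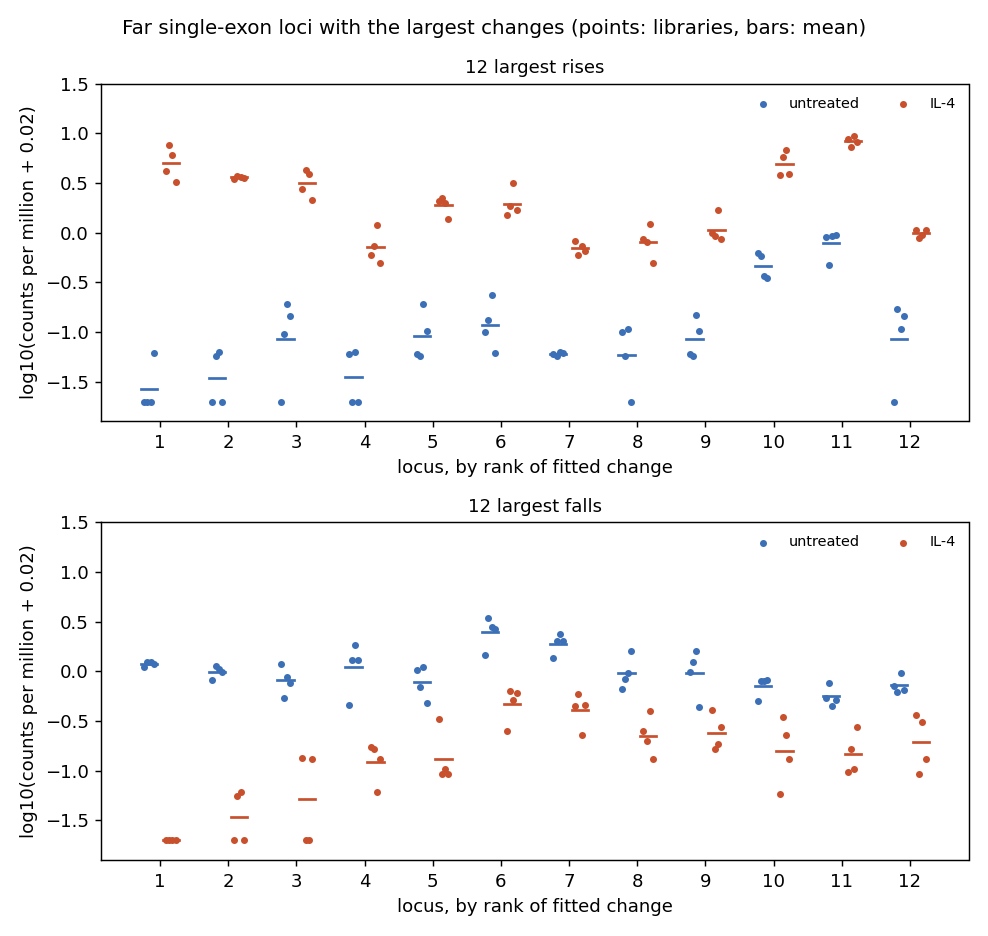
Each point is a library, as log10 of CPM plus 0.02, for the 12 far loci with the largest rises (upper panel) and the 12 with the largest falls (lower panel), ordered by fitted change, with short bars at group means. The loci were chosen among those whose groups do not overlap, so the gap between groups follows from the choice, while the spread within each group does not.

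The chromosome 10 rise was not isolated. It lay within the span of an 8-exon locus at chr10:9946151-10016868, which carries class code x, for exons that overlap a reference transcript on the opposite strand, and has no reference match of its own. This locus had 0, 8, 4 and 19 counts untreated and 1229, 2574, 2055 and 1272 with IL-4 (log2 fold change 7.84 ± 0.46 SE). A second far locus, chr10:10027926-10033359, rose beside it, from 15, 15, 8 and 8 counts to 97, 159, 162 and 104. The 6 near loci of the stretch were also higher with IL-4, and 5 of them had 0 or 1 count in all untreated libraries together. The largest of these, chr10:9985765-9989587, had 0 counts in the 4 untreated libraries and 66, 196, 168 and 98 with IL-4, at least 166-fold higher against a floor of 3 counts over the group. The annotated locus to the left of the far loci, which lies within the span of the 8-exon locus, had 0 counts in all libraries. How reads shared by overlapping loci were counted is not given, so its 0 counts need not mean that no RNA was made. The coding locus on the right had 0.288 ± 0.0978 CPM untreated and 0.183 ± 0.0875 with IL-4 (SD, n = 4). Loci of such a stretch may be pieces of 1 transcript and were not counted as independent observations of IL-4.

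**Figure D3:**
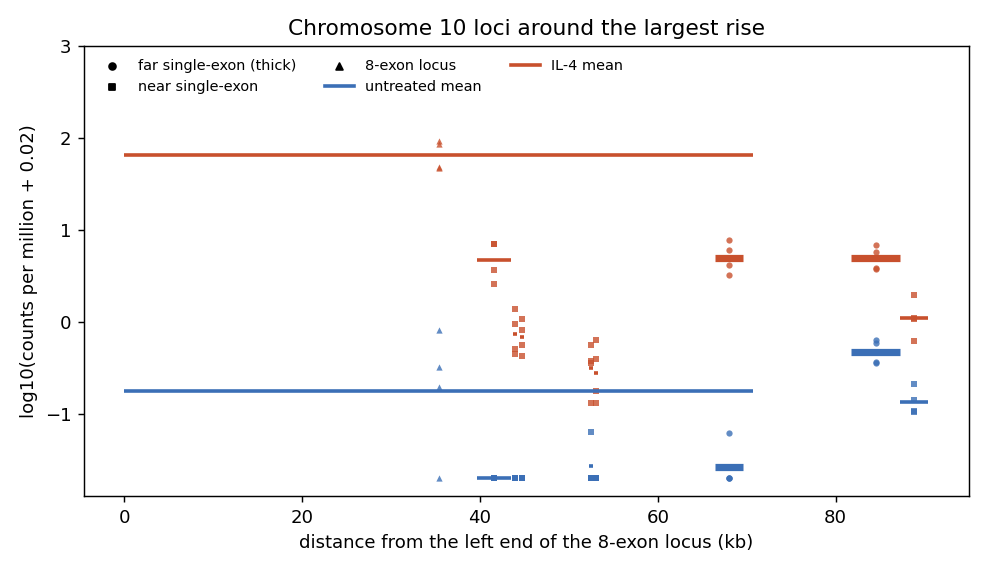
Horizontal lines span the loci of the chromosome 10 stretch by distance in kb from the left end of the 8-exon locus (introns included), at the group mean of log10(CPM + 0.02), and symbols show the 4 libraries of each group. The 2 far loci (thick lines) and the 7 other unannotated loci drawn lie higher with IL-4. Annotated loci are not drawn.

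The 2 largest falls went to almost no reads. Both loci passed the count filter through the untreated libraries alone. Loci with no reference match are also listed only through assembled reads, and p-values do not allow for that choice. The locus chr16:93140249-93142672 (XLOC_010913) had 27, 33, 28 and 28 counts untreated and 0 in all 4 IL-4 libraries, at least 41.1-fold lower against a floor of 3 counts over the group. Its neighbour chr16:93136926-93139793 (XLOC_010912) had 20, 30, 24 and 23 counts untreated and 0, 1, 1 and 0 with IL-4 (adjusted p = 3.37e-06, edgeR). They belong to a run of 5 far loci, 201288 nt or more from annotated loci, in which each of the 5 had 0 or 1 count per IL-4 library. Summed over the run, counts were 66, 95, 80 and 71 untreated and 1, 1, 1 and 2 with IL-4. The coding locus on the left, 313937 nt from the first of these loci named, was not called (88.5 ± 12.1 and 76.8 ± 16.5 CPM; SD, n = 4).

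A fall with a falling neighbour was seen on chromosome 8. The locus chr8:118137165-118139170 had 29, 14, 20 and 18 counts untreated and 3, 0, 0 and 3 with IL-4 (log2 fold change -3.64 ± 0.58 SE). The annotated coding locus to its right, 67671 nt away, fell from 235 ± 13.2 to 14.1 ± 8.63 CPM (SD, n = 4), and 4 more far loci close by had 0 or 1 count in each IL-4 library. On chromosome 13, chr13:98334127-98334433 fell from 11, 34, 42 and 31 to 4, 4, 1 and 3 counts inside the span of a 4-exon unannotated locus that fell from 18.5 ± 1.40 to 3.29 ± 0.568 CPM (SD, n = 4). On chromosome 17, chr17:84455675-84456934 fell from 17, 16, 22 and 15 to 9, 2, 7 and 3 counts within a 3-exon unannotated locus that fell from 54.2 ± 2.40 to 9.15 ± 1.95 CPM (SD, n = 4). The most isolated of the 12 falls was chr2:46214821-46216024, 660853 nt from an annotated locus, with 25, 18, 25 and 11 counts untreated and 8, 2, 2 and 2 with IL-4. Its IL-4 replicate 1 stood above the other 3, and the fitted fall of 5.42-fold became 9.15-fold without it. The other 7 falls lay between 3.23-fold and 4.88-fold by the fit, that at chr17:84455675-84456934 among them.

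Far loci often sat side by side. When far loci within 20000 nt of each other were joined into runs there were 706 runs, of which 573 were single loci, and 133 runs of 2 or more held 383 loci. In 21 runs 2 or more loci were called. In all 21 the called loci went the same way, up in 14 and down in 7. Loci of a run may be pieces of the same transcript, so called loci within a run are not independent observations. Their agreement is given as a description, and no share for other adjacent loci is set beside it. With counts summed per run before the fit, 139 of 537 tested runs rose and 69 fell, also on the TMM scale. In the fit of single loci 25.6% of all tested loci rose and 26.2% fell.

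Runs of rising loci included a stretch of 6 at chr10:67152166-67188108, in which 5 were tested and all 5 rose. Its summed counts were 78, 142, 163 and 86 untreated and 324, 330, 310 and 230 with IL-4, without overlap (log2 fold change 1.37 ± 0.22 SE). The coding locus 74359 nt to its left rose from 83.3 ± 15.8 to 265 ± 32.9 CPM (SD, n = 4). A run of 10 at chr13:5911390-5949714 went from 6, 30, 29 and 75 counts to 111, 410, 280 and 215 (log2 fold change 2.86 ± 0.52 SE, adjusted p = 0.000847, edgeR), and the 4 loci tested in it all rose. The coding locus 30473 nt to its left was not called (531 ± 19.5 and 492 ± 39.0 CPM; SD, n = 4), but a 3-exon unannotated locus overlapping the run rose from 5.75 ± 2.40 to 28.3 ± 5.68 CPM (SD, n = 4). At chr3:122072993-122097666 a run of 4 went from 16, 15, 24 and 12 counts to 95, 108, 91 and 87, and at chr16:45003642-45022732 a pair went from 11, 11, 20 and 12 to 110, 130, 98 and 88. These last runs were picked after their values were seen.

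The clearest falling run of the larger ones was at chr13:112745858-112770810, with 8 loci. Its summed counts were 115, 228, 179 and 188 untreated and 27, 50, 37 and 43 with IL-4 (log2 fold change -2.15 ± 0.22 SE, adjusted p = 1.11e-05, edgeR). Untreated replicate 1 was the lowest of its group but above all IL-4 libraries. Of its loci 3 are among the 12 largest falls, and an annotated non-coding locus 80131 nt to the left fell too, from 5.97 ± 0.572 to 1.31 ± 0.488 CPM (SD, n = 4). The coding locus 307848 nt to the right rose from 44.0 ± 5.73 to 63.1 ± 7.24 CPM (SD, n = 4).

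The 2 runs with most loci were not called, and single libraries stood out in them. The run of 29 loci at chr9:13266918-13395993 spanned 129 kb and had 113, 303, 306 and 278 summed counts untreated and 208, 798, 370 and 292 with IL-4. The groups overlapped (adjusted p = 0.131, edgeR), and IL-4 replicate 2 was the highest library for 27 of its 29 loci. The run of 14 loci at chr12:11982240-12072022 had 136, 355, 455 and 501 counts untreated and 251, 700, 310 and 435 with IL-4 (adjusted p = 0.641, edgeR). IL-4 replicate 2 was again highest, in 11 of the 14 loci, and untreated replicate 1 lowest in 13. In the rising run of 10 loci on chromosome 13 the same 2 libraries were the highest and the lowest of the 8. Without IL-4 replicate 2, the mean of the run of 29 loci with IL-4 was 11.4 rather than 15.8 CPM, beside 10.2 CPM untreated. The part that these libraries play in the runs was not tested. A run of 6 at chr2:167572352-167608945 was not called (adjusted p = 0.235, edgeR).

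**Figure D4:**
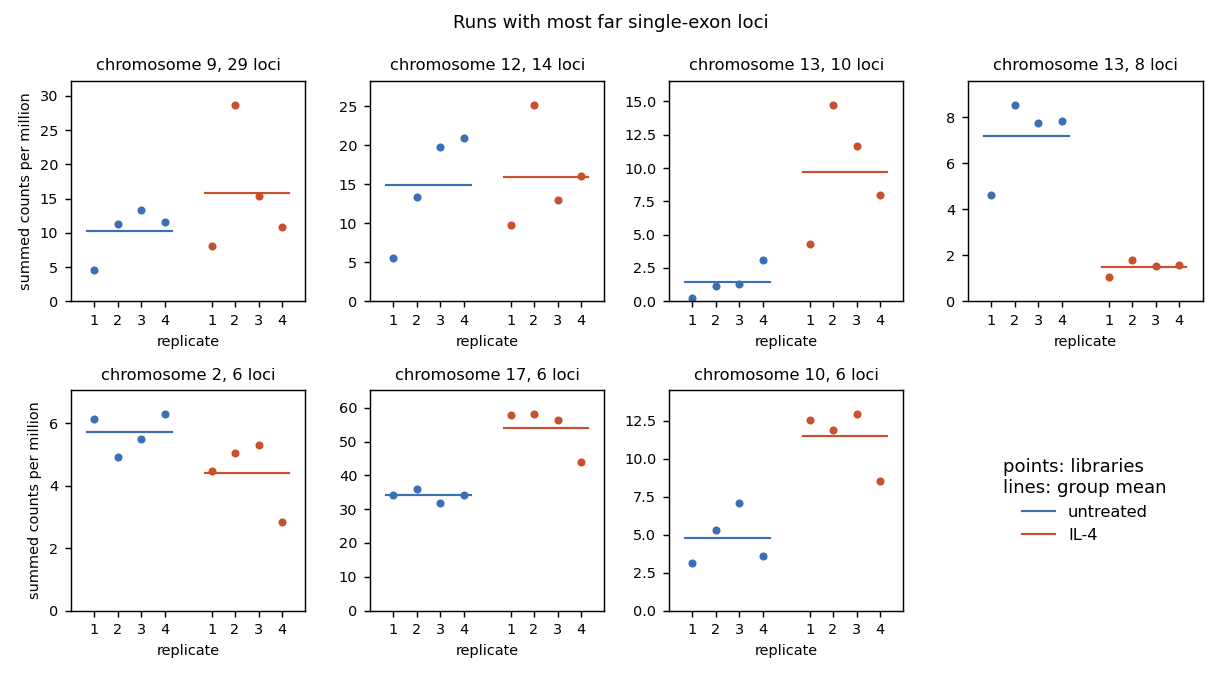
Summed CPM of the 7 runs with most far loci (ties at 6 loci included), with a point for each replicate of the untreated and IL-4 groups, a line at each group mean and axes starting at 0. IL-4 replicate 2 is the highest library in the runs of 29, 14 and 10 loci, and the groups do not overlap in the runs of 10 and 8 loci or in those of 6 loci on chromosomes 17 and 10.

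The longest far loci changed little or moderately. The longest, chr17:29554099-29574515 (20417 nt), had 832, 947, 716 and 808 counts untreated and 1443, 1540, 1309 and 1162 with IL-4, with no overlap (log2 fold change 0.75 ± 0.09 SE, adjusted p = 3.35e-05, edgeR). It lies between 2 coding loci that moved in opposite directions. The left one fell from 75.7 ± 6.51 to 11.3 ± 1.79 CPM and the right one rose from 73.6 ± 6.16 to 153 ± 16.6 CPM (SD, n = 4). Of the next 4 in length, chr6:54685338-54704510 and chr8:27782278-27792267 rose with calls that were lost without IL-4 replicate 2 and with library totals, and for the second also without untreated replicate 4. The locus chr15:100899326-100908702 fell by 0.33 on the log2 scale, a call lost on leaving out untreated replicate 2 or IL-4 replicate 1, 3 or 4. The locus chr8:35731945-35742425 was not called, with 101, 157, 167 and 163 counts untreated and 128, 227, 107 and 139 with IL-4.

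Far loci and their nearest annotated loci changed together only in part. Both were tested in 334 cases, with 233 distinct neighbours. Of 82 far loci that rose, the neighbour rose for 38, fell for 12 and was not called for 32. Of 44 that fell, the neighbour fell for 16, rose for 13 and was not called for 15. Of 208 that were not called, the neighbour rose for 45, fell for 50 and was not called for 113. Across the 334 pairs Pearson's r of the log2 fold changes was 0.29 and Spearman's rho 0.25, given as a description, since the pairs share libraries and some share a neighbour. It was 0.38 and 0.32 for the 262 far loci under 10 CPM, and -0.15 and -0.04 for the 72 at 10 CPM or more.

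**Figure D5:**
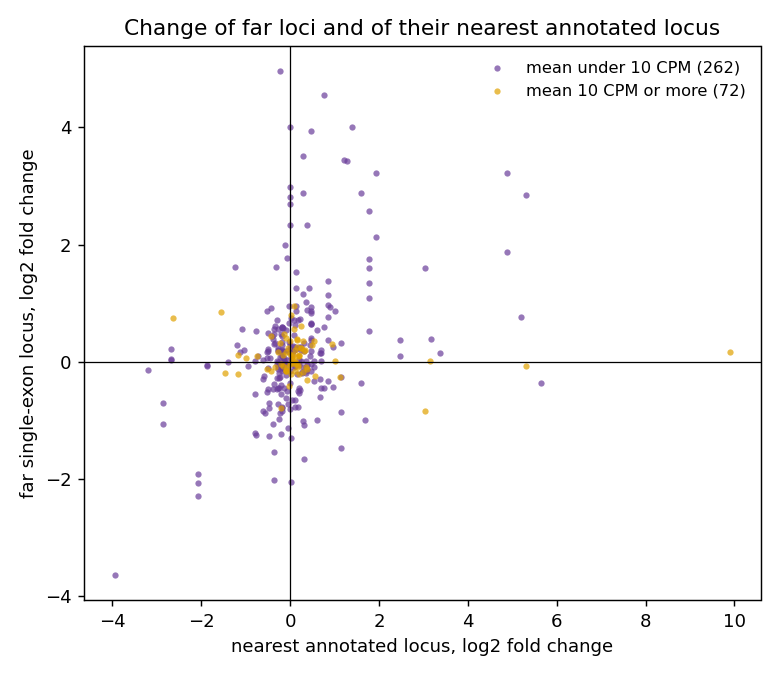
Each point is a far single-exon locus (vertical axis) and its nearest annotated locus (horizontal axis), both as fitted log2 fold change, IL-4 over untreated, for the 334 pairs in which both were tested. The 72 far loci of 10 CPM or more lie between -0.83 and 0.96 on the vertical axis, and the 262 weaker ones between -3.64 and 4.96.

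The most changed annotated loci were also looked up as neighbours of far loci. Of the 20 annotated loci with the largest rises and the 20 with the largest falls, 2 were the nearest neighbour of a far locus. For comparison, tested far loci had 233 distinct nearest neighbours among 11489 tested annotated loci, so that number is not low. The locus chr13:42353413-42354613 had 1, 0, 2 and 1 counts untreated and 12, 11, 12 and 7 with IL-4, and did not pass the count filter. The coding locus 42025 nt from it had 0 counts untreated and 5.19 ± 1.34 CPM with IL-4 (SD, n = 4). The locus chr10:84776219-84777132 had 1440, 1456, 1166 and 1182 counts untreated and 1562, 1475, 1304 and 1482 with IL-4 (adjusted p = 0.0689, edgeR; called with the replicate block), while its non-coding neighbour went from 0 counts to 4.52 ± 0.696 CPM (SD, n = 4).

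For the 3 largest rises, annotated loci within 500000 nt were ranked by Pearson's r of log2(CPM + 0.5) with the far locus over the 8 libraries, as a description. The far loci were picked for their rise, so r is largely set by the difference between the groups and does not single out a partner. For the chromosome 10 rise the closest of 2 tested loci was a coding locus at chr10:9473853-9626455, at a gap of 386171 nt, with r = 0.96, which rose from 164 ± 7.58 to 209 ± 13.4 CPM (SD, n = 4). For the chromosome 5 rise the closest of 7 was a coding locus at chr5:32438025-32461063, 261398 nt away, with r = 0.98, which rose from 35.7 ± 3.10 to 155 ± 33.0 CPM (SD, n = 4). For the chromosome 13 rise none of 4 was alike, the highest r being 0.15. The nearest annotated loci of these 3 far loci had 0 counts in all libraries, with the limit given above for the chromosome 10 one. Among the other large rises, that at chr17:73386461-73387993 lay between 2 coding loci that both rose, the left one from 24.7 ± 2.1 to 123 ± 11.2 CPM (SD, n = 4).

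The authors' FPKM values (fragments scaled to transcript length and library size, which allow levels to be compared between loci) gave a smaller set. Of the member transcripts 477 passed the FPKM filter, and limma on log2(FPKM + 0.1) called 102 as risen and 44 as fallen, beside 19.8% and 18.5% of all tested transcripts. With quantile normalization of the same values 86 rose and 79 fell, so here too the balance depended on the scaling. Between counts and FPKM, 91 loci rose in both and 36 fell in both, and none was called in opposite directions. Of those that rose in counts, 13 were not called in FPKM and 50 were not tested. Of those that fell in counts, 1 was not called and 43 were not tested. Both measures come from the same libraries. The FPKM of the shortest loci stood far above their counts per length. For the 75 far loci under 200 nt the FPKM was a median 19.5 times the CPM per kb, and up to 5606 times, against 0.684 times for the 726 loci of 500 nt or more. The highest mean FPKM of any far locus, 9358, belonged to chr2:173872255-173872360, a locus of 106 nt with 6 to 15 counts per library. By CPM per kb the top locus was chr2:172334900-172335238, at 2176 CPM per kb.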

How the data were processed

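RNA-seq of 4 untreated and 4 IL-4 libraries was used. Per the submitters' processing notes, the build was mm9 and the tools were TopHat2 2.0.9, Cufflinks 2.1.1, HTSeq and CASAVA 1.8.2. No source used here gives their settings, such as the strand setting of the counting. Read counts per merged locus are whole numbers as the authors deposited them, beside FPKM per transcript (89208 transcripts), also from the authors, and a merged annotation with class codes. Of the value columns 0 were left over. A locus was termed coding where the annotation gives it a protein ID. Reference tables matched 0 of the locus IDs, and sequences are not used here.

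The gap of each locus to the nearest annotated locus was computed, and members within 20000 nt of each other were joined into runs. The whole count table was fitted with edgeR 4.0.16 (R 4.3.3, filterByExpr, TMM factors, quasi-likelihood test, treatment only) and the FPKM table with limma 3.58.1 on log2(FPKM + 0.1), requiring FPKM of at least 1 in 4 libraries. CPM scale counts to the library total, while fold changes use TMM factors. SE is the log2 fold change divided by the root of the F statistic. Sums per library were compared by two-sided exact permutation (SciPy 1.17.1). Both fits were tested on simulated data. Alternatives were DESeq2 1.42.0, other scalings and filters, a threshold of 1.5-fold, other gap limits, and leaving out libraries. Depth limits the weak loci: intervals and floors of 3 counts cover counting error only.

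The members and lists were chosen with earlier results of these data known. Named loci were the 12 largest rises and 12 largest falls with groups that did not overlap, the 6 with highest FPKM, the 5 longest, the 5 runs with most members (and ties), 3 on each side of the gap limit, and those next to the 20 most risen or 20 most fallen annotated loci. Replicate numbers of the labels were taken as pairs in the replicate block and in counts of replicate pairs, while the main fits ignored them. The reason was that same-numbered libraries deviated together (correlations 0.39, 0.15, 0.23 and 0.18 for replicates 1 to 4 over 13761 loci). Untreated replicate 3 and IL-4 replicate 2 also correlated, at 0.26, and untreated replicate 2 and IL-4 replicate 3 at 0.13. The labels themselves name no shared animal or day.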

Additional observations from a re-analysis of the deposited data

Results flagged for a closer look

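In groups of 4 libraries, 1 library stood apart from the other 3 by more than Dixon's criterion in 10 of the 90 groups checked. Chance marks about 5% of independent groups of normal values. Some groups here hold very few reads and some share loci, so the number flagged cannot be set against that share. These values are given without explanation. For the largest rise, chr10:10012627-10015719, untreated replicate 4 had 0.0417 CPM where the other 3 untreated libraries had 0. At chr19:17337520-17339928, which rose, IL-4 replicate 3 was the highest of its group at 1.67 CPM. At chr5:53767261-53771839, which rose, untreated replicate 2 was the lowest of its group at 0.450 CPM. At chr2:46214821-46216024, which fell, IL-4 replicate 1 was the highest of its group at 0.310 CPM. At chr13:112749254-112751490, which fell, untreated replicate 1 was the lowest of its group at 0.484 CPM. At the longest locus, chr17:29554099-29574515, IL-4 replicate 4 was the lowest of its group at 43.0 CPM, and the sum of its run at chr17:29543875-29580007 was also lowest there, at 44.1 CPM. At chr15:100899326-100908702, IL-4 replicate 2 was the highest of its group at 8.64 CPM. At chr2:172334900-172335238, the locus with most counts, untreated replicate 1 was the lowest of its group at 644 CPM, and without it the fall was called. At chrX:12779671-12780992, IL-4 replicate 1 was the highest of its group at 615 CPM.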

How the results depend on the processing

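Against 154 rises and 80 falls, no filter on counts gave 234 and 122, a test against a change of 1.5-fold gave 62 and 30, a gap over 50000 nt gave 98 and 40, and a stricter filter left 53 falls among fewer loci tested. Library totals without TMM factors, added after seeing the data, gave 124 rises and 125 falls. Leaving out 1 library at a time gave 147 to 182 rises and 75 to 86 falls. With the replicate block, pairing libraries by number, 169 rose and 95 fell; DESeq2 called 225 and 107.

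The difference in the far share, -0.121 percentage points, ran from -0.132 to -0.104 with 1 library left out, where no exact p under 0.0571 is possible. It was -0.125 without both replicate 4 libraries (smallest p 0.1), -0.121 with p = 0.125 by exact permutation within the replicate block, and 0.00425 for loci under 10 CPM. The difference in the log2 ratio of far to near counts, 0.0133, was 0.0719 with a gap over 50000 nt, -0.0340 with a gap over 10000 nt, 0.0262 without the 5 members with most counts and 0.209 for loci under 10 CPM. It ran from 0.00775 to 0.0178 with 1 library left out. Transcripts changed in FPKM, 146, became 220 with no filter, ran from 117 to 155 with 1 library left out and were 145 with the replicate block. The log2 fold change of chr8:35731945-35742425, 0.04 and not called, became -0.0726 with library totals and ran from -0.177 (without IL-4 replicate 2) to 0.149 with 1 library left out, also below 0 without untreated replicate 1 (-0.104). The causes of these shifts were not tested. The block changed no call of a named locus except that at chr10:84776219-84777132. Low counts limit the loci under 1 CPM, of which 195 of 518 could be tested.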
